A study of Mus musculus with 18 samples.

Results

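The interleukin genes of the mouse heart were followed through the first 72 h of acute myocardial infarction (AMI). Members were all gene symbols of the expression table that begin with Il and a digit, which gave 83 of 24419 symbols, and the 42 that reached 1 FPKM in at least 1 of 18 mice were tested, among 13333 genes tested in all. FPKM, a count of fragments scaled to the length of the transcript and to the mapped fragments of the library, is a level per length. The 42 were 11 of 38 ligands, 3 of 5 natural inhibitors, 27 of 38 receptor chains and 1 of 2 other genes.

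RNA-seq of polyA RNA was done on heart tissue of 18 C57BL/6 mice of 8 weeks, which the study describes as male, in 6 groups of 3. All mice were anaesthetised with sodium pentobarbital. AMI was made by tying off the proximal left anterior descending coronary artery, and infarcted left ventricle was taken 10 min, 1 h, 6 h, 24 h or 72 h later. The control group of the labels is the sham group of the study, and the genotype was the same throughout, with no allele or drug named. Each library is whole tissue of 1 mouse, so more cells of a type and more RNA per cell cannot be told apart.

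Interleukins are secreted proteins through which leukocytes, fibroblasts, endothelial cells and muscle cells signal to each other, and each acts through a receptor built of several chains. Ligands of the IL-1 family are released by injured or activated cells, and their receptors recruit Myd88 and the Irak kinases, which leads to NF-kB. IL-6 and IL-11 act through the shared chain gp130 (Il6st), and IL-4, IL-7, IL-15 and IL-21 through the common gamma chain (Il2rg), both by way of JAK kinases and STAT factors. In the infarcted heart, these signals are known to accompany the entry of neutrophils, and later of monocytes and macrophages, and the repair that follows.

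The 3 members with the largest difference from sham at 6 h were Il1b, Il1rn and Il6, and the 150 bases before their start sites are shown because these genes moved together at that time. The sequences are from RefSeq on GRCm38.p6, 5′ to 3′ on the strand of the gene, with motif matches in capitals. The capitals in Il1b (chr2:129371140-129371289, minus strand) are a C/EBP match (TTNCNNAA, read on the opposite strand) 91 bases before the start. In Il1rn (chr2:24336710-24336859, plus strand) they are an AP-1 match (TGANTCA) 141 bases before the start shown. In Il6 (chr5:30012964-30013113, plus strand) a C/EBP match, also read on the opposite strand, lies 128 bases and an NF-kB consensus match 44 bases before the start. Il1rn has several start sites, and the first along the gene is shown. Its promoter entries that begin at chr2:24345041 and chr2:24345121 held C/EBP matches and no AP-1 match.
Il1b: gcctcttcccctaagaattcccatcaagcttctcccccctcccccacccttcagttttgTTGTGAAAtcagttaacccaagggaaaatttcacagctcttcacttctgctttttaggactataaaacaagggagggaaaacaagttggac
Il1rn: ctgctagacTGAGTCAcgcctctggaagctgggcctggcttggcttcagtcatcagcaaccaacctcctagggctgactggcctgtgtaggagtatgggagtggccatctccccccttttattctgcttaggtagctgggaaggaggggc
Il6: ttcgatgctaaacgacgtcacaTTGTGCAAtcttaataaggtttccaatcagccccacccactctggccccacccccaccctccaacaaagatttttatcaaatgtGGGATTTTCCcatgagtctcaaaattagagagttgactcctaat

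An entry with 250 bases before the start was found for 35 of the 42 members, and both strands were searched. Some members have several start sites, so the 35 members have 45 promoter entries, and shares are given per entry. The NF-kB consensus stood in 4 of the 45 entries (8.89%) and in 7.25% of all 32851 promoters of the same length. STAT letters (TTCNNNGAA) stood in 5 entries (11.1%, against 7.02% of all promoters), AP-1 letters in 6 (13.3%, against 6.75%) and C/EBP letters in 24 (53.3%, against 36.8%). These are matches of letters and not binding sites, entries of 1 gene can overlap, and each count is small.

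The deposited FPKM summed to between 542418 and 600467 per mouse, and the depth of the libraries relative to the first sham mouse, estimated from the lowest values, ranged from 0.814 to 1.32. No 2 mice had identical values. One library stood apart in these genes. Replicate 3 at 24 h was the highest mouse of its group in 29 of the 42 members and the highest of all 18 mice in 12 of them. Its neutrophil markers summed to 996 FPKM, against 216 and 45.2 FPKM in the other 24 h mice, and differences at 24 h without this mouse are given for the described members whose call it changed or whose value it moved by over 1.5 times. Replicate 1 at 6 h was the highest of its group in 23 members, with a neutrophil sum of 1000.8 FPKM against 117 and 377 FPKM.

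Expression was compared on the scale log2(FPKM + 1) with limma, each time point against sham on its own 6 mice, and "called" means an adjusted p under 0.05 over all genes tested. Differences on this scale are called log2 differences and are given ± SE, and they understate the change of genes with low FPKM. The 6 earlier mice are those at 10 min and 1 h. None of the 42 members was called 10 min after ligation, where limma called 0.248% of all genes higher and 0.0978% lower, and 6 members had an unadjusted p under 0.05. At 1 h only Il6 was called, higher, among 41 members with any variation (0.669% of all genes were called higher and 0.0526% lower), and 8 members had an unadjusted p under 0.05. The share of all genes with an unadjusted p under 0.05 was not counted at either time, so these counts cannot be set against it.

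At 6 h, 14 members were higher and 5 lower. That is 33.3% and 11.9% of the 42, beside 11.6% and 16.8% of all genes, and the median difference was 0.21 over the members and -0.08 over all genes. At 24 h, 15 were higher and 5 lower (35.7% and 11.9%, beside 26.2% and 11.4% of all genes), with medians of 0.53 and 0.13. The 72 h mice had 28 members higher and 7 lower (66.7% and 16.7%, beside 53.1% and 24.2% of all genes), with medians of 0.68 and 0.29. The largest rises were those of Il1b, Il1rn and Il6 at 6 h, of Il1rn, Il1b and Il18rap at 24 h and of Il7r, Il1rn and Il10ra at 72 h.

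The counts need their context. Of the 42 members, 17 were under 1 FPKM in every sham mouse and were tested only because a ligated mouse reached that level, and 14 of these were called higher and 0 lower at some time. With each of the 6 mice left out in turn, 11 of the 19 calls at 6 h, 6 of the 20 at 24 h and 30 of the 35 at 72 h held every time. The 24 h count of higher members fell to 5, 6 and 8 without sham replicate 1, 2 and 3, and was 17 without 24 h replicate 3. The 5 lower members at 24 h were 1 or 2 without any 1 sham mouse and 3 without 24 h replicate 1 or 3. The 6 h count of higher members was 9 without sham replicate 1, the 6 h count of lower members 3 and 2 without sham replicate 1 and 2, and the 72 h count of lower members 4 without sham replicate 3.

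**Figure D1:**
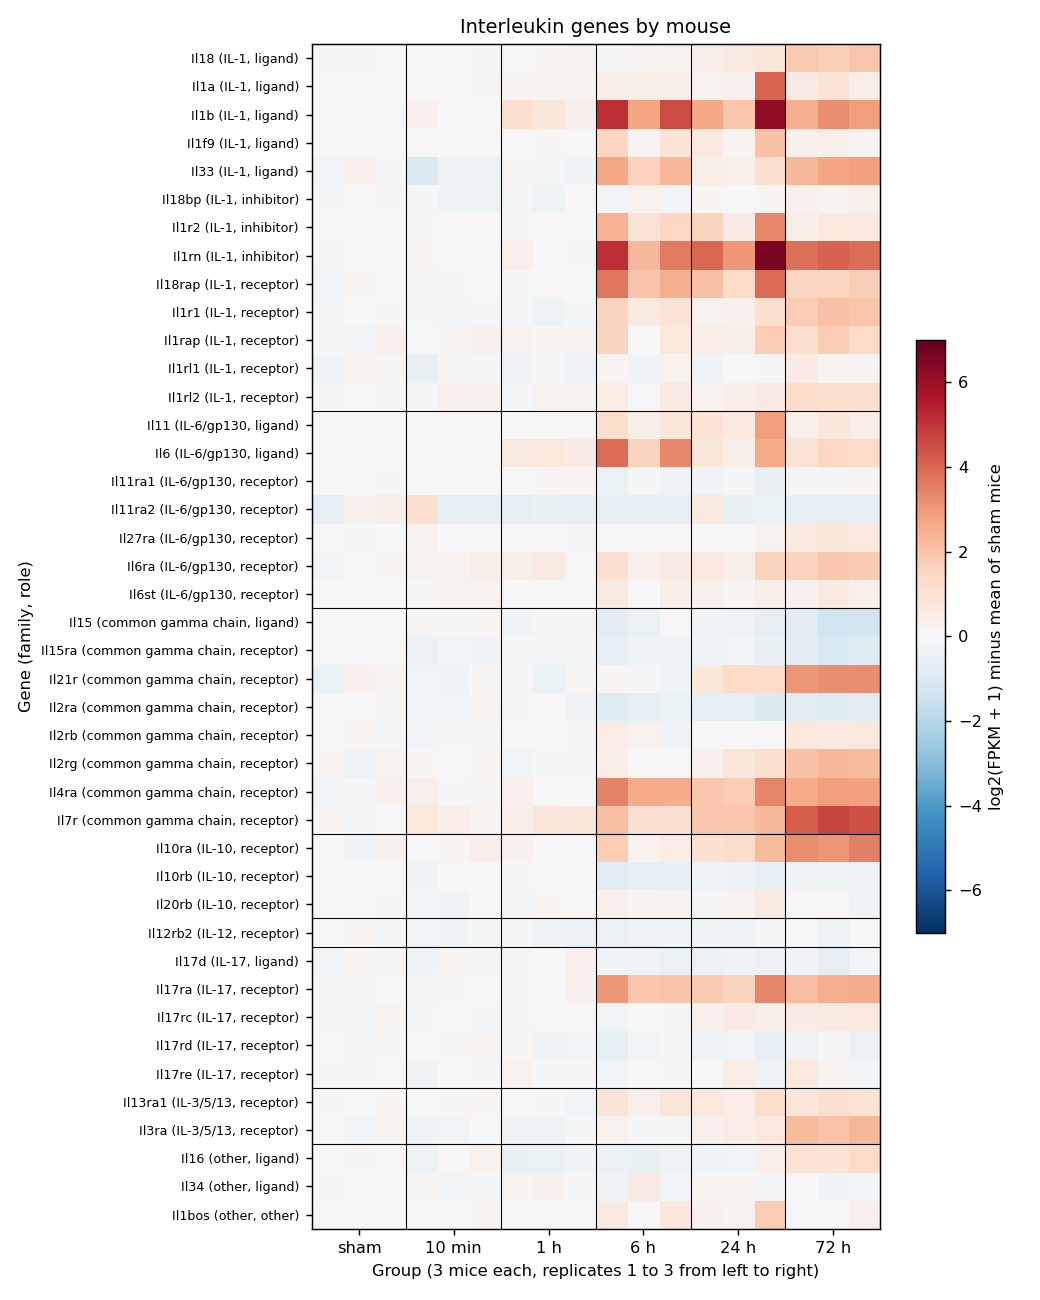
Difference of each mouse from the mean of the sham mice in log2(FPKM + 1) (colour), for the 42 tested interleukin genes (vertical axis, grouped by family) and 18 mice (horizontal axis, 3 per group, replicates 1 to 3 from left to right). Most columns of the 10 min and 1 h mice stay close to 0, while Il1b and Il1rn reach their strongest colour in replicate 3 at 24 h.

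By time course, 8 members were higher at 6 h, 24 h and 72 h (Il13ra1, Il17ra, Il18rap, Il1b, Il1rn, Il4ra, Il6ra and Il7r). A further 6 were called higher at 6 h and 72 h but not at 24 h (Il11, Il1a, Il1r1, Il1r2, Il33 and Il6). Another 7 were called higher at 24 h and 72 h but not at 6 h (Il10ra, Il17rc, Il18, Il1rl2, Il21r, Il2rg and Il3ra), and 6 at 72 h alone (Il18bp, Il1f9, Il1rap, Il27ra, Il2rb and Il6st). Without 24 h replicate 3, Il11, Il1r1, Il1r2 and Il6 were also called higher at 24 h. Set directly against 6 h, the 24 h level was called different only for Il33, Il17rc and Il21r. Under quantile normalization the 24 h calls of Il17rc, Il1rl2, Il2rg and Il3ra were lost. Median-of-ratios scaling also ended those of Il17rc and Il2rg. On the lower side, Il10rb, Il15ra and Il2ra were called at all 3 times, Il15 and Il17d at 24 h and 72 h, Il11ra2 and Il17rd at 72 h, and Il12rb2 at 6 h. Il16 was lower at 6 h and higher at 72 h. The 6 members called at no time with all mice were Il11ra1, Il17re, Il1bos, Il1rl1, Il20rb and Il34. The share of all genes with each of these patterns was not counted. Of all genes, 11.6%, 26.2% and 53.1% were called higher at 6 h, 24 h and 72 h, and 16.8%, 11.4% and 24.2% lower. The 17 members under 1 FPKM in every sham mouse were tested only because a ligated mouse reached that level and could hardly be called lower.

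Among the ligands, the alarm cytokine Il1b had the widest range. Its FPKM was 0.401, 0.414 and 0.364 in the sham mice, 0.738, 0.443 and 0.367 in the 10 min mice and 1.94, 1.38 and 0.881 in the 1 h mice. At 6 h it was 49.4, 8.34 and 32.0, at 24 h 7.68, 4.31 and 103 and at 72 h 7.12, 12.4 and 9.72. Every mouse from 1 h onward lay above all 3 sham mice, and the 24 h group spread widest. Il1b was called at 6 h (4.16 ± 0.54, adjusted p = 0.00277), 24 h (3.60 ± 1.01, adjusted p = 0.0308) and 72 h (2.92 ± 0.16, adjusted p = 7.05e-07), while at 1 h it missed the threshold (0.76, adjusted p = 0.0991) and passed it only without 1 h replicate 3 (0.93, adjusted p = 0.0138). Without replicate 3 the 24 h difference was smaller (2.28, adjusted p = 0.000592), and the 24 h call was lost without sham replicate 1, 2 or 3 (3.60 at the highest adjusted p, 0.0906). Il1b (chr2:129364570-129371139, minus strand, mm10) shares 25 exon bases with the antisense gene Il1bos, and no source used here states that reads were counted by strand, so reads of the 2 genes cannot be told apart there. Il1bos itself was not called against sham and was 0.224, 0.141 and 2.38 FPKM in the 24 h mice.

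Il1a, the other ligand of the same receptor, stayed far lower. It had 0, 0 and 0.0243 FPKM in sham, 0, 0.0387 and 0.0552 in the 10 min mice and 0.0909, 0.109 and 0.146 in the 1 h mice. After that it had 0.410, 0.320 and 0.414 FPKM in the 6 h mice, 0.204, 0.228 and 15.7 in the 24 h mice and 0.501, 0.893 and 0.336 in the 72 h mice. All mice at 1 h, 6 h, 24 h and 72 h exceeded the sham mice, with 1 mouse at 24 h far above every other. It was called at 6 h (0.45 ± 0.07, adjusted p = 0.00556) and 72 h (0.63 ± 0.13, adjusted p = 0.00209) but not at 24 h (1.53, adjusted p = 0.233, and 0.27, adjusted p = 0.0505 without replicate 3). In a fit of all 18 mice neither call was made (0.45, adjusted p = 0.613 at 6 h and 0.63, adjusted p = 0.388 at 72 h), and the 72 h call was lost under quantile normalization (0.21, adjusted p = 0.121). Of the exon bases of Il1a, 11.2% lie opposite Gm14023.

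Il33, an alarm signal held in the nucleus of stromal cells, went up, down and up again. Sham mice had 1.94, 3.13 and 2.25 FPKM, the 10 min mice 0.706, 1.70 and 1.61 and the 1 h mice 2.56, 2.24 and 1.82. The level was 21.6, 9.46 and 16.1 in the 6 h mice, 3.70, 3.36 and 6.33 in the 24 h mice and 15.3, 22.3 and 23.6 in the 72 h mice. The 6 h and 72 h mice lay above every sham mouse and above every 24 h mouse, and the 10 min mice lay below sham without being called (-0.57, adjusted p = 0.26). Against sham it was called at 6 h (2.23 ± 0.27, adjusted p = 0.0023) and 72 h (2.63 ± 0.18, adjusted p = 2.14e-06) and missed the threshold at 24 h (0.64, adjusted p = 0.0595, and 0.41, adjusted p = 0.081 without replicate 3). Set directly against each other, 24 h was lower than 6 h (-1.58 ± 0.31, adjusted p = 0.0253) and 72 h higher than 24 h (1.99 ± 0.24, adjusted p = 0.00072). The first of these calls was lost without 6 h replicate 1, 2 or 3 or 24 h replicate 2 (-1.44 at the highest adjusted p, 0.0912).

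Il18, which like Il1b is matured by caspase-1, came later and stayed low. It was 0, 0.138 and 0.121 FPKM in sham, 0.0551 to 0.225 in the 6 mice at 10 min and 1 h and 0, 0.216 and 0.309 in the 6 h mice. It then reached 0.498, 0.661 and 0.875 in the 24 h mice and 2.87, 2.39 and 2.99 in the 72 h mice. The 24 h mice lay above all earlier mice and below all 72 h mice. Il18 was called at 24 h (0.62 ± 0.12, adjusted p = 0.0106), a call lost without sham replicate 1 (0.57 at the highest adjusted p, 0.051), and at 72 h (1.79 ± 0.10, adjusted p = 7.92e-07), and 72 h exceeded 24 h (1.16 ± 0.13, adjusted p = 0.000508).

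Il1f9, the gene of IL-36 gamma, was listed at 0 in all 3 sham mice, so no fold is given. It had 0 to 0.0556 FPKM in the 6 earlier mice, 1.82, 0.153 and 0.925 in the 6 h mice, 0.601, 0.125 and 3.15 in the 24 h mice and 0.209, 0.284 and 0.155 in the 72 h mice. The mice at 72 h were the lowest of the 3 late groups on average but the closest together, and only there was it called (difference 0.28, with adjusted p = 0.0172), a call lost without sham replicate 1 (0.28 at the highest adjusted p, 0.0534). This call was also lost under quantile normalization and in a fit of all 18 mice (difference down to 0.024, adjusted p up to 0.768). Without replicate 2 Il1f9 was also called at 6 h (difference 1.22, with adjusted p = 0.00539) and at 24 h (1.36, with adjusted p = 0.0422), where it was not called with all mice (0.97, adjusted p = 0.114) or without replicate 3 (0.42, adjusted p = 0.0722).

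Il6, which drives the acute phase response, was the earliest to move. Its FPKM was 0, 0.0171 and 0 in sham, 0, 0 and 0.0390 in the 10 min mice and 0.571, 0.702 and 0.492 in the 1 h mice. It was 14.1, 1.92 and 9.16 in the 6 h mice, 0.733, 0.315 and 5.16 in the 24 h mice and 0.934, 1.79 and 1.58 in the 72 h mice. Each of the 12 mice from 1 h onward exceeded all sham and all 10 min mice. Il6 was called at 1 h (0.66 ± 0.07, adjusted p = 0.00507), 6 h (2.93 ± 0.53, adjusted p = 0.00867) and 72 h (1.26 ± 0.14, adjusted p = 4.05e-05), and not at 24 h (1.26, adjusted p = 0.0948), where replicate 3 was far above the other mice (0.59, adjusted p = 0.0163 without it, and 1.70, adjusted p = 0.0481 without replicate 2). The 72 h level was below that at 6 h (-1.67 ± 0.53, adjusted p = 0.0216), which was lost without 6 h replicate 3 or 72 h replicate 1 (-1.47 at the highest adjusted p, 0.0794). The 1 h call of Il6 held with any 1 mouse left out, and was lost when all 18 mice shared one fit (0.66, adjusted p = 1).

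Il11, a gp130 ligand known for its action on fibroblasts, was 0, 0.0328 and 0.0288 FPKM in sham and 0 to 0.0591 FPKM in the 6 earlier mice. It was 1.38, 0.363 and 0.853 FPKM in the 6 h mice, 0.991, 0.618 and 6.81 in the 24 h mice and 0.290, 0.792 and 0.399 in the 72 h mice. All 9 late mice lay above sham, with replicate 3 at 24 h the highest. The gene was called at 6 h (0.83 ± 0.19, adjusted p = 0.0171) and 72 h (0.54 ± 0.13, adjusted p = 0.00465) but not at 24 h (1.52, adjusted p = 0.0631), although it passed there without replicate 3 (0.81, adjusted p = 0.0031) or replicate 2 (1.95, adjusted p = 0.0415). The 6 h call was lost without sham replicate 1, 2 or 3 (0.82 at the highest adjusted p, 0.0616). Its 72 h call was lost under quantile normalization (0.11, adjusted p = 0.371) and in a fit of all 18 mice (0.54, adjusted p = 0.227).

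Il15, which sustains natural killer and memory T cells, fell. It was 12.0, 12.7 and 12.2 FPKM in sham and 10.1 to 13.4 in the 6 earlier mice. The values were 7.08, 8.50 and 12.5 in the 6 h mice, 10.2, 9.24 and 7.41 in the 24 h mice and 6.72, 4.04 and 4.51 in the 72 h mice. The 24 h and 72 h mice lay below sham, while at 6 h 1 mouse was within the sham range (-0.40, adjusted p = 0.133, and -0.60, adjusted p = 0.00963 without that mouse). It was called lower at 24 h (-0.43 ± 0.12, adjusted p = 0.0319), which was lost without sham replicate 1, 2 or 3 or 24 h replicate 2 (-0.41 at the highest adjusted p, 0.109), and at 72 h (-1.15 ± 0.15, adjusted p = 0.000102).

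Il16, a chemoattractant for cells that carry CD4, was 10.4, 11.1 and 10.3 FPKM in sham, 7.91, 10.5 and 12.96 in the 10 min mice and 7.21, 7.27 and 8.69 in the 1 h mice. It was 7.33, 7.21 and 8.13 in the 6 h mice, 8.36, 9.15 and 13.9 in the 24 h mice and 22.6, 20.4 and 28.1 in the 72 h mice. The 6 h mice lay below sham (-0.44 ± 0.09, adjusted p = 0.0116, a call lost without sham replicate 1 or 2 (-0.41 at the highest adjusted p, 0.0568)), the 24 h mice overlapped with it (-0.05, adjusted p = 0.846), and the 72 h mice lay above all others (1.08 ± 0.11, adjusted p = 2.67e-05). Il16 shares 15.3% of its exon bases with Stard5 on the other strand. Il17d was lower at 24 h (-0.42, adjusted p = 0.0329) and 72 h (-0.38, adjusted p = 0.0388), from 7.23 to 9.35 FPKM in sham to 5.89 to 6.59 and 4.98 to 7.32. The 24 h call was lost without sham replicate 2 or 3 or 24 h replicate 1 or 3 (-0.36 at the highest adjusted p, 0.122). The 72 h call was lost without sham replicate 2 or 3 or 72 h replicate 2 (-0.32 at the highest adjusted p, 0.117). Il34, a ligand of the macrophage receptor Csf1r, ranged from 3.45 to 6.90 FPKM over all mice and was called at no time.

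**Figure D2:**
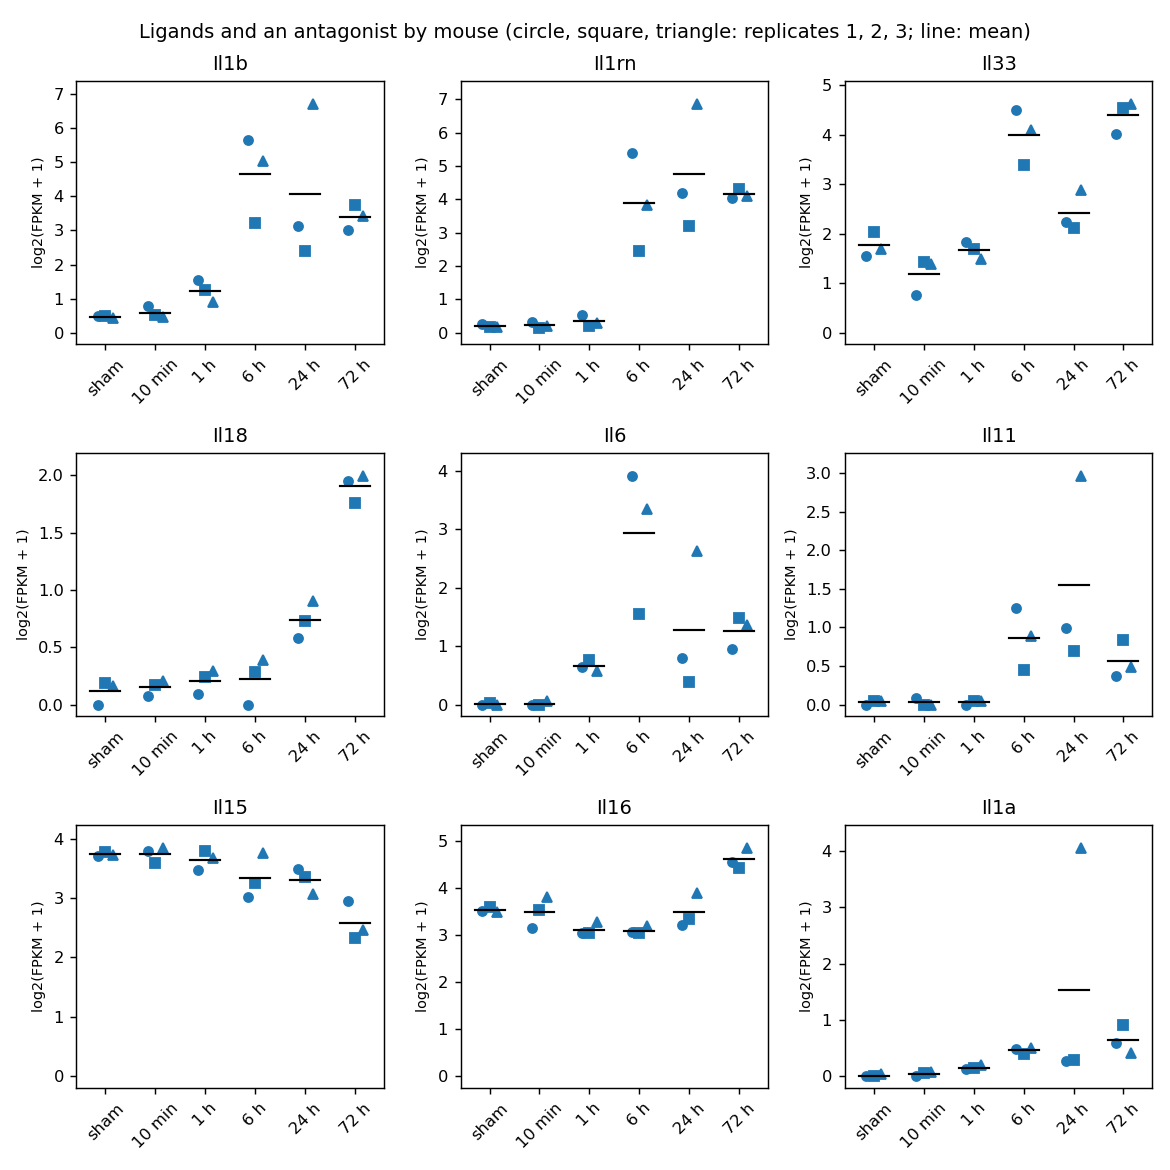
Levels of 8 ligands and of the antagonist Il1rn in each of the 18 mice as log2(FPKM + 1) (vertical axes), by group (horizontal axes), with circles, squares and triangles for replicates 1, 2 and 3 and a line at the group mean. Il33 is high at 6 h and 72 h and lower at 24 h, Il18 rises at 24 h and again at 72 h, and the triangle at 24 h stands above its group in Il1b, Il1rn, Il6, Il11 and Il1a.

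All 3 inhibitors that could be tested act in the IL-1 family, and all were called higher at 72 h, beside 53.1% of all genes. Il1rn and Il1r2 were under 1 FPKM in every sham mouse, so they were tested only because a ligated mouse reached that level. The 72 h calls of Il1r2 and Il18bp were lost in some settings. Il1rn, the soluble antagonist that occupies the IL-1 receptor without a signal, had 0.199, 0.135 and 0.119 FPKM in sham, 0.244, 0.110 and 0.154 in the 10 min mice and 0.445, 0.152 and 0.228 in the 1 h mice. It had 41.0, 4.49 and 13.2 FPKM in the 6 h mice, 17.4, 8.28 and 115 in the 24 h mice and 15.5, 18.9 and 16.3 in the 72 h mice. No mouse of the 3 late groups came near the sham range, and the 72 h mice lay close together. Il1rn was called at 6 h (3.69 ± 0.63, adjusted p = 0.00685), 24 h (4.56 ± 0.83, adjusted p = 0.00917) and 72 h (3.96 ± 0.09, adjusted p = 1.38e-08), with any 1 mouse left out, and at 24 h without replicate 3 the difference was smaller (3.51, adjusted p = 0.000388). It lies at chr2:24336853-24351494 (mm10, plus strand), on the chromosome that also carries Il1f9, Il1a and Il1b.

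Il1r2, the decoy receptor that binds IL-1 and does not signal, was 0, 0.00758 and 0 FPKM in sham and 0 to 0.0542 in the 6 earlier mice. Its FPKM was 4.36, 0.895 and 1.70 in the 6 h mice, 1.94, 0.468 and 9.22 in the 24 h mice and 0.400, 0.668 and 0.602 in the 72 h mice. All 9 late mice lay above sham, and both the 6 h and the 24 h group spread over a wide range. It was called at 6 h (1.59 ± 0.33, adjusted p = 0.0139) and 72 h (0.63 ± 0.10, adjusted p = 0.000349) and not at 24 h (1.82, adjusted p = 0.0562), although it passed there without replicate 3 (1.05, adjusted p = 0.0236) or replicate 2 (2.45, adjusted p = 0.0207). The 6 h call was lost without sham replicate 1 or 3 (1.59 at the highest adjusted p, 0.0503). The 72 h call was lost under quantile normalization (0.19, adjusted p = 0.0713) and in a fit of all 18 mice (0.63, adjusted p = 0.241). The 72 h level was lower than that at 6 h (-0.96 ± 0.33, adjusted p = 0.0308), a call lost without 6 h replicate 3 or 72 h replicate 1, 2 or 3 (-0.88 at the highest adjusted p, 0.0882).

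Il18bp, which binds and neutralises IL-18, was 1.61, 1.70 and 1.88 FPKM in sham and 2.33, 2.14 and 2.42 in the 72 h mice, and 1.11 to 2.19 FPKM in the other mice. It was called higher at 72 h (0.27 ± 0.08, adjusted p = 0.0163), but this small difference turned to -0.29 under quantile normalization and the call was lost without sham replicate 1 or 72 h replicate 3 (0.24 at the highest adjusted p, 0.0622). The median difference of all genes at 72 h was itself 0.29, and it was 0.04 after median-of-ratios scaling and -0.12 after quantile normalization.

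Of the receptors of the IL-1 family, Il1r2, Il1r1, Il1rl2, Il1rl1, Il18r1 and Il18rap lie next to each other on the plus strand of chromosome 1, from Il1r2 (start 40074079, mm10) to Il18rap (end 40551705). Il1rap lies on chromosome 16. Il1r1, the signalling receptor of IL-1, had 17.1, 17.8 and 18.6 FPKM in sham and 13.8 to 17.0 in the 6 earlier mice. It had 54.4, 27.7 and 34.1 FPKM in the 6 h mice, 21.1, 22.6 and 40.3 in the 24 h mice and 62.3, 77.2 and 70.0 in the 72 h mice. The 72 h mice lay above every other mouse, and those at 6 h and 24 h lay above sham. It was called at 6 h (1.02 ± 0.22, adjusted p = 0.0149), which was lost without sham replicate 1 or 2 (0.99 at the highest adjusted p, 0.057), and at 72 h (1.91 ± 0.09, adjusted p = 2.14e-07), and missed the threshold at 24 h (0.56, adjusted p = 0.0894), where it passed without replicate 3 (0.28, adjusted p = 0.0333) or replicate 1 (0.73, adjusted p = 0.0494).

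Its partner chain Il1rap, which IL-33 and IL-36 receptors also use, was 1.74, 1.60 and 2.60 FPKM in sham and 1.96 to 2.64 in the 6 earlier mice. It was 7.84, 2.06 and 3.93 in the 6 h mice, 3.15, 2.91 and 9.21 in the 24 h mice and 5.73, 9.11 and 6.35 in the 72 h mice. The 6 h mice overlapped with sham and the 24 h and 72 h mice did not. Only the 72 h difference was called (1.43 ± 0.18, adjusted p = 8.39e-05, with 0.79, adjusted p = 0.13 at 6 h and 0.90, adjusted p = 0.0903 at 24 h, or 0.45, adjusted p = 0.0635 there without replicate 3), and 6 h passed without its replicate 2 (1.16, adjusted p = 0.0257).

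Il18rap, the accessory chain of the IL-18 receptor, was 0.123, 0.440 and 0.331 FPKM in sham and 0.176 to 0.363 in the 6 earlier mice. It was 16.4, 4.19 and 6.49 FPKM in the 6 h mice, 4.30, 2.32 and 19.1 in the 24 h mice and 2.64, 2.60 and 3.25 in the 72 h mice. All late mice were above sham, and at 6 h and 24 h 1 mouse of each group was far above the other mice. Il18rap was called at 6 h (2.77 ± 0.40, adjusted p = 0.00374), 24 h (2.45 ± 0.60, adjusted p = 0.0208) and 72 h (1.57 ± 0.12, adjusted p = 4.44e-06). The 24 h call was lost without sham replicate 1, 2 or 3 (2.35 at the highest adjusted p, 0.075), and without 24 h replicate 3 it stayed but was smaller (1.70, adjusted p = 0.00208). The level at 72 h was lower than at 6 h (-1.20 ± 0.38, adjusted p = 0.0221), lost without 72 h replicate 1 or 2 (-1.16 at the highest adjusted p, 0.0656). The other chain, Il18r1, which binds IL-18 itself, did not reach 1 FPKM and was not tested, with 0.0115 to 0.0257 FPKM in sham and 0.913, 0.292 and 0.432 FPKM in the 72 h mice.

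Il1rl2, the IL-36 receptor, was 0.332, 0.443 and 0.471 FPKM in sham and 0.314 to 0.763 in the 6 earlier mice. Levels were 0.990, 0.377 and 1.14 in the 6 h mice, 0.706, 0.986 and 1.14 in the 24 h mice and 2.48, 2.22 and 2.17 in the 72 h mice. The 72 h mice exceeded all others, and the 6 h group overlapped with sham (0.35, adjusted p = 0.148, and 0.55, adjusted p = 0.0111 without replicate 2). Il1rl2 was called at 24 h (0.45 ± 0.12, adjusted p = 0.0247), which was lost without sham replicate 1, 2 or 3 or 24 h replicate 2 (0.41 at the highest adjusted p, 0.0937), and at 72 h (1.22 ± 0.09, adjusted p = 3.28e-06). Il1rl1, the receptor of IL-33, was 0.419, 1.06 and 0.854 FPKM in sham and 1.57, 1.02 and 1.03 FPKM in the 72 h mice, with 0.236 to 1.09 FPKM in the other mice. The 72 h mice overlapped with sham, and it was not called (0.32, adjusted p = 0.0902 at 72 h), except without sham replicate 2 (0.44, adjusted p = 0.0425). It was the only 1 of the 13 tested genes of the IL-1 family that was not called at 72 h, where 12 were higher, beside 53.1% of all genes. Of the 12, Il18, Il18rap, Il1a, Il1b, Il1f9, Il1r2, Il1rl2 and Il1rn were under 1 FPKM in every sham mouse. They were tested only because a ligated mouse reached that level and could hardly be called lower. The share of such genes among all genes was not counted.

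Il6ra, the chain that binds IL-6, was 0.597, 0.844 and 0.991 FPKM in sham, 1.14, 1.15 and 1.41 in the 10 min mice and 1.37, 1.81 and 0.811 in the 1 h mice. It had 3.04, 1.28 and 1.67 FPKM in the 6 h mice, 1.90, 1.43 and 4.27 in the 24 h mice and 4.57, 5.79 and 5.35 in the 72 h mice. The 10 min mice and all late mice lay above sham, and the 72 h mice above every other mouse. At 10 min the difference was not called (0.31, adjusted p = 0.242). The calls were at 6 h (0.69 ± 0.21, adjusted p = 0.0454), 24 h (0.89 ± 0.28, adjusted p = 0.0434) and 72 h (1.78 ± 0.11, adjusted p = 1.61e-06). The 6 h call was lost without sham replicate 1, 2 or 3 or 6 h replicate 3 (0.60 at the highest adjusted p, 0.143). The 24 h call was lost without sham replicate 1, 2 or 3 or 24 h replicate 1 (0.80 at the highest adjusted p, 0.133). Without 24 h replicate 3 the 24 h call stayed at a smaller value (0.56, adjusted p = 0.0208). The signal chain Il6st was abundant throughout, with 74.6, 77.0 and 74.1 FPKM in sham and 91.9, 121 and 97.9 FPKM in the 72 h mice, and its rise at 72 h was small (0.45 ± 0.10, adjusted p = 0.00312) and not called after median-of-ratios scaling (0.14, adjusted p = 0.211). The 10 min mice lay above sham without a call (0.19, adjusted p = 0.236). It was not called earlier with all mice, but passed without replicate 2 at 6 h (0.50, adjusted p = 0.0104) and at 24 h (0.35, adjusted p = 0.0296).

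Of the other gp130 receptors, Il27ra, a chain of the IL-27 receptor, was 0.704, 0.575 and 0.689 FPKM in sham, 0.512 to 0.991 at 10 min to 24 h and 1.63, 1.84 and 1.63 in the 72 h mice. Only the 72 h mice stood above all others (0.71 ± 0.09, adjusted p = 7.87e-05), and the call was lost under quantile normalization (0.17, adjusted p = 0.0859). Il11ra1, the receptor of IL-11, was 8.18, 8.14 and 8.77 FPKM in sham and 5.51 to 9.26 in the other mice, and was called against sham at no time. Its near copy Il11ra2 was 0, 0.987 and 1.11 FPKM in sham, 2.70, 0 and 0 in the 10 min mice, 1.45, 0.131 and 0.186 in the 24 h mice and listed at 0 in all 6 h and 72 h mice. It was called lower at 72 h although its sham mice included a 0 (difference -0.69, with adjusted p = 0.0338), a call lost without sham replicate 2 or 3 or 72 h replicate 1, 2 or 3 (-0.50 at the highest adjusted p, 0.117). Without sham replicate 1, the mouse at 0, it was also called lower at 1 h and at 6 h (-1.03, adjusted p = 0.00413). Reads of these near-identical copies can be split between them by the counting, so both values are uncertain.

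Receptors of the common gamma chain went both ways. Il2rg, the shared chain itself, was 12.5, 8.57 and 13.4 FPKM in sham and 9.73 to 12.7 in the 6 earlier mice. It was 16.3, 10.9 and 11.5 FPKM in the 6 h mice, 14.3, 21.4 and 25.9 in the 24 h mice and 50.4, 61.0 and 55.8 in the 72 h mice. The 6 h mice overlapped with sham and the 24 h and 72 h mice lay above it. The difference passed the test at 24 h (0.77 ± 0.24, adjusted p = 0.0433), lost without sham replicate 1, 2 or 3 or 24 h replicate 2 or 3 (0.58 at the highest adjusted p, 0.133), and at 72 h (2.20 ± 0.15, adjusted p = 2.24e-06). Il2rg shares 30.5% of its exon bases with Gm20489 on the same strand, so its level is uncertain by reads of that gene.

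Il7r, the receptor chain of IL-7, had the largest difference of all members at 72 h. It was 0.351, 0.120 and 0.211 FPKM in sham, 1.01, 0.781 and 0.410 in the 10 min mice and 0.675, 1.14 and 1.21 in the 1 h mice. It was 4.29, 1.81 and 1.54 FPKM in the 6 h mice, 3.49, 3.66 and 4.84 in the 24 h mice and 22.4, 31.6 and 25.9 in the 72 h mice. All mice at every time after ligation lay above sham, and those at 72 h above all others. The early differences were not called (0.49, adjusted p = 0.187 at 10 min and 0.70, adjusted p = 0.066 at 1 h, and 0.83, adjusted p = 0.021 without 1 h replicate 1). It was called at 6 h (1.45 ± 0.26, adjusted p = 0.0084), 24 h (2.02 ± 0.14, adjusted p = 0.000926) and 72 h (4.48 ± 0.13, adjusted p = 2.68e-08), and the 3 calls held with any 1 mouse left out.

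Il4ra, the chain that IL-4 and IL-13 share, was 12.9, 14.1 and 18.5 FPKM in sham and 14.2 to 19.7 in the 6 earlier mice. It was 174, 95.5 and 96.7 FPKM in the 6 h mice, 58.5, 54.6 and 172 in the 24 h mice and 96.2, 123 and 118 in the 72 h mice. The late mice all lay above every sham, 10 min and 1 h mouse. Il4ra was called at 6 h (2.88 ± 0.24, adjusted p = 0.000638), 24 h (2.38 ± 0.42, adjusted p = 0.00857) and 72 h (2.82 ± 0.14, adjusted p = 3.41e-07), with any 1 mouse left out (at 24 h without replicate 3, 1.85, adjusted p = 0.000445). Its exons share 9.51% of their bases with Gm44876 on the other strand. Il13ra1, which pairs with it, was 16.7, 18.9 and 20.7 FPKM in sham, 16.4 to 20.5 in the 6 earlier mice, 35.9, 24.0 and 34.6 in the 6 h mice, 31.7, 26.7 and 45.6 in the 24 h mice and 35.0, 41.4 and 36.8 in the 72 h mice. The late mice lay above sham, and Il13ra1 was called at 6 h (0.70, adjusted p = 0.0193), 24 h (0.82, adjusted p = 0.0182) and 72 h (0.97, adjusted p = 2.05e-05). The first 2 calls were each lost without sham replicate 1 or 2. The ligands Il4 and Il13 were at most 0.0452 and 0.0189 FPKM in any mouse.

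Il21r, the IL-21 receptor, was 0.289, 1.17 and 0.910 FPKM in sham and 0.265 to 0.878 in the 6 earlier mice. It was 0.956, 0.665 and 0.397 FPKM in the 6 h mice, 2.08, 3.67 and 3.23 in the 24 h mice and 13.8, 16.0 and 15.9 in the 72 h mice. The 6 h mice lay within the sham range and the groups then separated step by step, with 24 h above 6 h (1.25 ± 0.20, adjusted p = 0.017) and 72 h above 24 h (2.04 ± 0.17, adjusted p = 0.000132). The 24 h difference from 6 h was lost without 6 h replicate 2 or 3 or 24 h replicate 2 (1.25 at the highest adjusted p, 0.076). Against sham it was called at 24 h (1.17 ± 0.24, adjusted p = 0.0123) and 72 h (3.21 ± 0.18, adjusted p = 6.8e-07), and Il21 itself was at most 0.0199 FPKM.

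Il2ra and Il15ra, the private chains of IL-2 and IL-15, were lower. Il2ra was 1.37, 1.33 and 1.49 FPKM in sham, 1.02 to 1.63 in the 6 earlier mice, 0.330, 0.529 and 0.741 in the 6 h mice, 0.574, 0.532 and 0.168 in the 24 h mice and 0.402, 0.326 and 0.420 in the 72 h mice. All late mice lay below sham, and it was called at 6 h (-0.65 ± 0.11, adjusted p = 0.00762), 24 h (-0.76 ± 0.14, adjusted p = 0.00891) and 72 h (-0.79 ± 0.08, adjusted p = 3.38e-05). Il15ra was 4.26, 4.32 and 4.48 FPKM in sham, 3.07 to 4.03 in the 6 earlier mice, 2.63, 3.27 and 3.32 in the 6 h mice, 3.34, 3.63 and 2.76 in the 24 h mice and 2.18, 1.58 and 1.89 in the 72 h mice. All mice after ligation lay below sham, and its calls were at 6 h (-0.40, adjusted p = 0.0281), 24 h (-0.34, adjusted p = 0.0484) and 72 h (-0.90 ± 0.10, adjusted p = 3.4e-05). The 6 h call was lost without sham replicate 1, 2 or 3 (-0.38 at the highest adjusted p, 0.102) and the 24 h call without sham replicate 1, 2 or 3 or 24 h replicate 1 or 3 (-0.32 at the highest adjusted p, 0.144). Il2rb, the signalling chain that both ligands use, was 0.283, 0.406 and 0.204 FPKM in sham, 0.875, 0.564 and 0.103 in the 6 h mice, 0.278, 0.264 and 0.307 in the 24 h mice and 1.16, 1.04 and 1.18 in the 72 h mice, and 0.139 to 0.386 in the 6 earlier mice. The 72 h mice were above all others (0.71 ± 0.09, adjusted p = 0.00013). This call was lost under quantile normalization (0.15, adjusted p = 0.134). At 6 h the difference passed only without replicate 3 (0.40, adjusted p = 0.049).

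**Figure D3:**
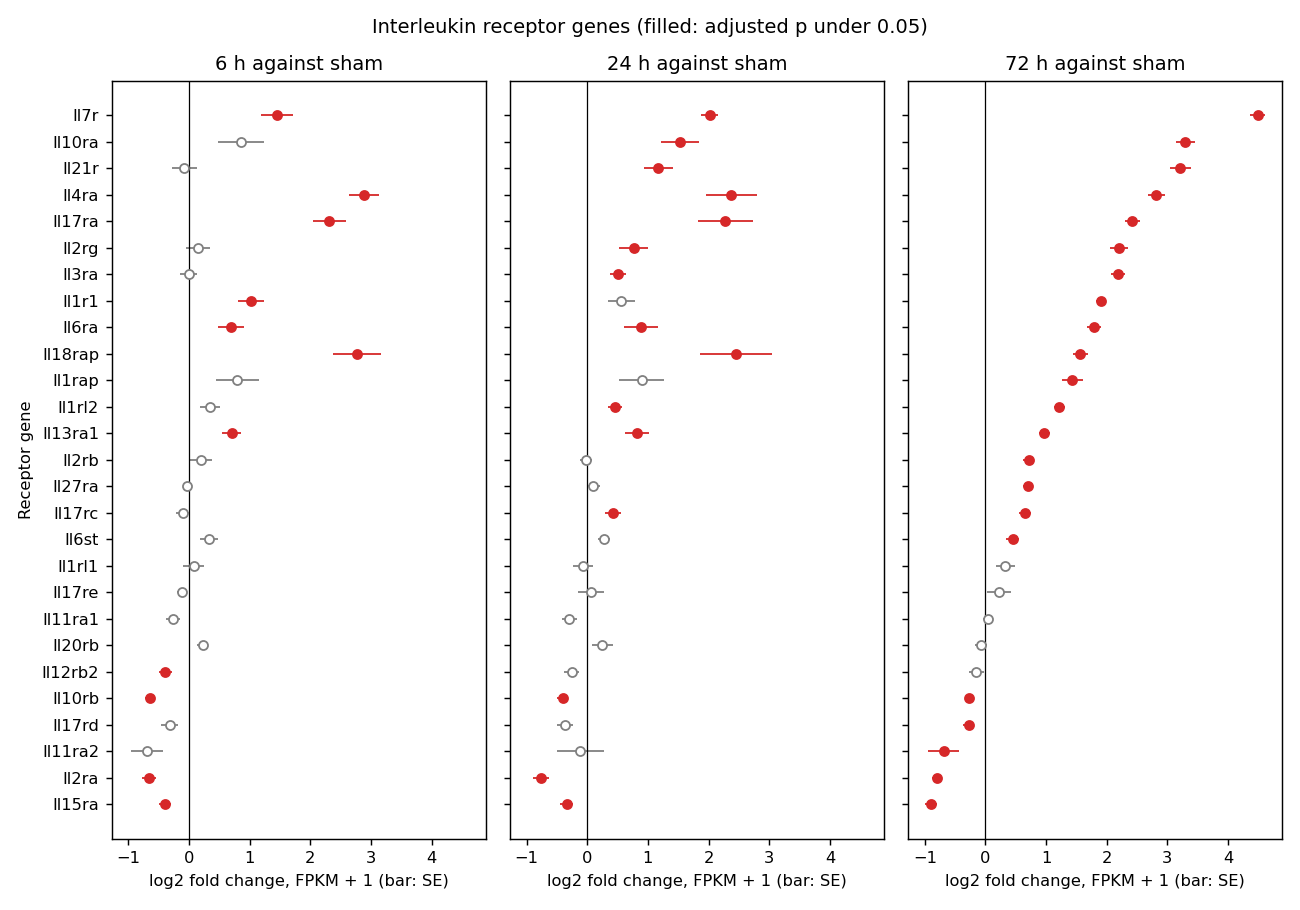
Log2 fold change on the scale of FPKM + 1 against sham (horizontal axes, with bars of 1 SE) for the 27 tested receptor chains (vertical axis, ordered by the 72 h value) at 6 h, 24 h and 72 h, 3 mice per group. Filled points have an adjusted p under 0.05. Il17ra and Il4ra are far right at all 3 times, while Il10ra, Il21r, Il2rg and Il3ra move right from 6 h to 72 h.

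Il10ra, the chain that binds the anti-inflammatory IL-10, was 2.30, 1.84 and 3.21 FPKM in sham and 2.34 to 3.77 in the 6 earlier mice. It was 10.8, 3.07 and 3.93 FPKM in the 6 h mice, 6.07, 7.36 and 15.1 in the 24 h mice and 30.9, 28.4 and 38.4 in the 72 h mice. The 6 h group overlapped with sham, the 24 h mice lay above it and the 72 h mice above every other mouse. It was called at 24 h (1.53 ± 0.31, adjusted p = 0.0126), lost without sham replicate 1 or 2 (1.51 at the highest adjusted p, 0.0539) and kept without replicate 3 (1.18, adjusted p = 0.00401), and at 72 h (3.29 ± 0.16, adjusted p = 3.03e-07), and 72 h exceeded 24 h (1.76 ± 0.29, adjusted p = 0.00296). Its partner Il10rb went the other way, from 68.2, 69.7 and 68.2 FPKM in sham to 41.2, 43.1 and 46.0 in the 6 h mice, 56.5, 52.4 and 46.3 in the 24 h mice and 57.3, 55.9 and 57.3 in the 72 h mice, with 57.6 to 68.1 in the 6 earlier mice. All late mice were below sham. Il10rb was called lower at 6 h (-0.65 ± 0.07, adjusted p = 0.00152), 24 h (-0.41, adjusted p = 0.0168, lost without any 1 of the sham mice) and 72 h (-0.27, adjusted p = 0.00209). It shares 14.9% of its exon bases with Gm21970 on the same strand. Il10 itself stayed under 1 FPKM, with 0 in all sham and 10 min mice and 0.239, 0.258 and 0.145 FPKM in the 72 h mice, and Il20rb was called at no time.

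Il17ra, the chain common to the IL-17 receptors, was 2.24, 2.56 and 2.34 FPKM in sham and 2.03 to 3.20 in the 6 earlier mice. It was 26.6, 12.0 and 12.3 FPKM in the 6 h mice, 11.0, 9.05 and 35.4 in the 24 h mice and 13.8, 18.9 and 19.2 in the 72 h mice. No late mouse overlapped with the earlier mice. Il17ra was called at 6 h (2.31 ± 0.28, adjusted p = 0.00205), 24 h (2.28 ± 0.45, adjusted p = 0.0114) and 72 h (2.42 ± 0.12, adjusted p = 4.19e-07), with any 1 mouse left out (at 24 h without replicate 3, 1.70, adjusted p = 0.000252). Its partner Il17rc changed less, from 1.19, 1.11 and 1.59 FPKM in sham to 1.79, 2.45 and 2.01 in the 24 h mice (0.42, adjusted p = 0.0406) and 2.47, 2.60 and 2.71 in the 72 h mice (0.65, adjusted p = 0.000338). The 24 h call was lost without sham replicate 1, 2 or 3 or 24 h replicate 2 or 3 (0.37 at the highest adjusted p, 0.138). The 72 h call of Il17rc was lost under quantile normalization (0.08, adjusted p = 0.423). Il17rd was lower at 72 h (-0.28, adjusted p = 0.0226), lost without sham replicate 1 or 3 or 72 h replicate 1 or 3 (-0.22 at the highest adjusted p, 0.082), and Il17re was called only without 72 h replicate 3 (0.43, adjusted p = 0.0419). Il17a was listed at 0 in every mouse and Il17f was at most 0.0113 FPKM.

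Il3ra, the chain that binds IL-3, was 7.17, 6.30 and 8.21 FPKM in sham and 5.33 to 7.20 in the 6 earlier mice. It was 8.82, 6.42 and 6.41 FPKM in the 6 h mice, 9.11, 10.9 and 12.0 in the 24 h mice and 37.7, 31.6 and 40.1 in the 72 h mice. The 6 h mice overlapped with sham, and both later groups lay above it. It was called at 24 h (0.50 ± 0.14, adjusted p = 0.0271), lost without sham replicate 1, 2 or 3 or 24 h replicate 2 (0.42 at the highest adjusted p, 0.1), and at 72 h (2.19 ± 0.11, adjusted p = 4.54e-07). Il12rb2, a chain of the IL-12 receptor, was 1.21 to 1.75 FPKM in sham and 0.819 to 0.931 at 6 h, where it was called lower (-0.39, adjusted p = 0.0318), lost without sham replicate 1 or 2 or 6 h replicate 1 or 2 (-0.31 at the highest adjusted p, 0.103). As 40.0% of its exon bases lie opposite Serbp1, its level is uncertain.

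The 41 members that never reached 1 FPKM were not tested. Of these, 11 were listed at 0 in all 18 mice (Il17a, Il1f10, Il1f6, Il1f8, Il1rapl2, Il2, Il20, Il22, Il24, Il3 and Il9). The highest among the others were Il23a with 0.961 FPKM in replicate 3 at 24 h, Il18r1 with 0.913 FPKM at 72 h, Il4i1 with 0.702 FPKM and Il7 with 0.338 FPKM. So the ligands of several receptors whose level rose, such as Il3, Il7 and Il21, were at or near 0 in this tissue.

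The direct tests between late times show which levels kept moving. From 6 h to 24 h, 2 of 42 members were higher (Il17rc and Il21r) and 1 lower (Il33). That is 4.76% and 2.38%, beside 12.5% and 1.94% of all genes. Each of the 3 was lost without some single mouse (adjusted p up to 0.0760 to 0.127). From 24 h to 72 h, 13 were higher and 2 lower (31% and 4.76%, beside 29.7% and 13.5% of all genes). Of these 15, 13 held with any 1 mouse left out, and Il15 and Il6ra did not. Without 24 h replicate 3 the higher members numbered 19. Of the 13 higher, 10 were receptor chains, which is 37% of the 27 tested receptor chains, beside 29.7% of all genes. From 6 h to 72 h, 15 of 41 members were higher and 5 lower (36.6% and 12.2%, beside 50.3% and 16.7% of all genes). Of these 20, 14 held with any 1 mouse left out. Il6, Il1r2 and Il18rap were among the 5 lower, next to Il15 and Il15ra. The 5 lower were 9 without 6 h replicate 2, where Il1b was added (-1.96, adjusted p = 0.000344), and 2 or 3 without 6 h replicate 3 or any 1 of the 72 h mice.

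Genes that work with the interleukins were described from 3 lists. Among 13 genes of IL-1 processing and signalling, the 6 h mice had 5 higher and 2 lower, the 24 h mice 4 and 1, and the 72 h mice 10 and 2. The shares higher were 38.5%, 30.8% and 76.9%, beside 11.6%, 26.2% and 53.1% of all genes. The shares lower were 15.4%, 7.69% and 15.4%, beside 16.8%, 11.4% and 24.2%. Nlrp3, the sensor of the inflammasome, was higher at 6 h (1.32 ± 0.37, adjusted p = 0.0339), as was the adaptor Myd88 (1.41 ± 0.11, adjusted p = 0.000475). Casp1, the protease that matures IL-1 beta and IL-18, was lower at 6 h (-0.36 ± 0.10, adjusted p = 0.0357) and higher at 72 h (2.11 ± 0.10, adjusted p = 2.45e-07). Among 10 tested partners of shared receptor chains, the counts were 8 higher and 1 lower in the 6 h mice, 5 and 0 in the 24 h mice, and 8 and 1 in the 72 h mice. The shares higher were thus 80%, 50% and 80% and the shares lower 10%, 0% and 10%, to be read against the same shares of all genes. The gp130 partner Osmr, the oncostatin M receptor, was higher at 6 h (2.07 ± 0.12, adjusted p = 0.000233), while Lifr was lower (-0.43 ± 0.13, adjusted p = 0.0414). Csf2rb, the chain through which IL-3 signals together with Il3ra, was higher at 6 h (2.47 ± 0.41, adjusted p = 0.00645) and 72 h (3.32 ± 0.08, adjusted p = 1.38e-08), though the near copy Csf2rb2 makes its value uncertain. Among 10 tested JAK-STAT genes, the 6 h mice had 2 higher and 3 lower, the 24 h mice 2 and 0, and the 72 h mice 8 and 1, which is 20%, 20% and 80% higher and 30%, 0% and 10% lower. Stat3, the main STAT of gp130, was higher at 6 h (1.31 ± 0.15, adjusted p = 0.00172). None of the 3 lists had a gene called at 10 min or 1 h. Calls of genes in these lists were not repeated with mice left out or under other settings, so how far they hold is unknown.

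Markers of cell types moved with these genes. The 6 neutrophil markers in the table summed to 2.56 to 5.28 FPKM in sham, 117 to 1001 at 6 h, 45.2 to 996 at 24 h and 54.9 to 67.8 at 72 h, and 6, 5 and 5 of the 6 were called higher at these times. Retnlg was listed at 0 in 2 sham mice. The same 2 mice, replicate 1 at 6 h and replicate 3 at 24 h, were the highest of their groups in the neutrophil sum and in Il1b, Il1rn, Il1r2, Il18rap, Il17ra and Il4ra. This was not particular to neutrophils. Both mice were also the highest of their groups in the pan-leukocyte, monocyte and macrophage, endothelial, T cell, B cell and mast cell sums. In the cardiomyocyte and fibroblast sums they were not. The 7 monocyte and macrophage markers summed to 187 to 212 FPKM in sham, 143 to 238 at 6 h, 487 to 698 at 24 h and 3430.0 to 4532 at 72 h, and 3, 7 and 7 were called higher, while 1 (Csf1r) was called lower at 6 h. The 8 pan-leukocyte markers went from 56.7 to 79.6 FPKM in sham to 1097 to 1261 at 72 h, with 4, 8 and 8 called higher. Of all genes, 11.6%, 26.2% and 53.1% were called higher at 6 h, 24 h and 72 h, and 16.8% lower at 6 h. The part of these cells in the changes of the interleukin genes was not tested.

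Resident cells shifted as well. The 6 cardiomyocyte markers, abundant in every mouse, went from 38194 to 40811 FPKM in sham to 15015 to 18395 at 72 h, where all 6 were lower. The 4 fibroblast markers summed to 174 to 181 FPKM in sham and 1103 to 1445 at 72 h, where all 4 were higher, and 2 of 4 endothelial markers were lower. Lymphocyte and mast cell markers stayed low in every mouse. The 6 T cell markers summed to 1.24 to 2.13 FPKM in sham and 4.21 to 7.69 at 72 h (2 of 3 tested higher), the 4 B cell markers to 1.60 to 2.35 and 5.64 to 7.03 (2 of 2 tested higher) and the 5 mast cell markers to 2.69 to 3.82 and 4.25 to 5.65 (1 of 2 tested higher). Fcer1a was listed at 0 in all sham mice. Of all genes, 53.1% were called higher and 24.2% lower at 72 h, so the T cell and mast cell counts lie near the share of all genes. The part of these cells was not tested either.

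**Figure D4:**
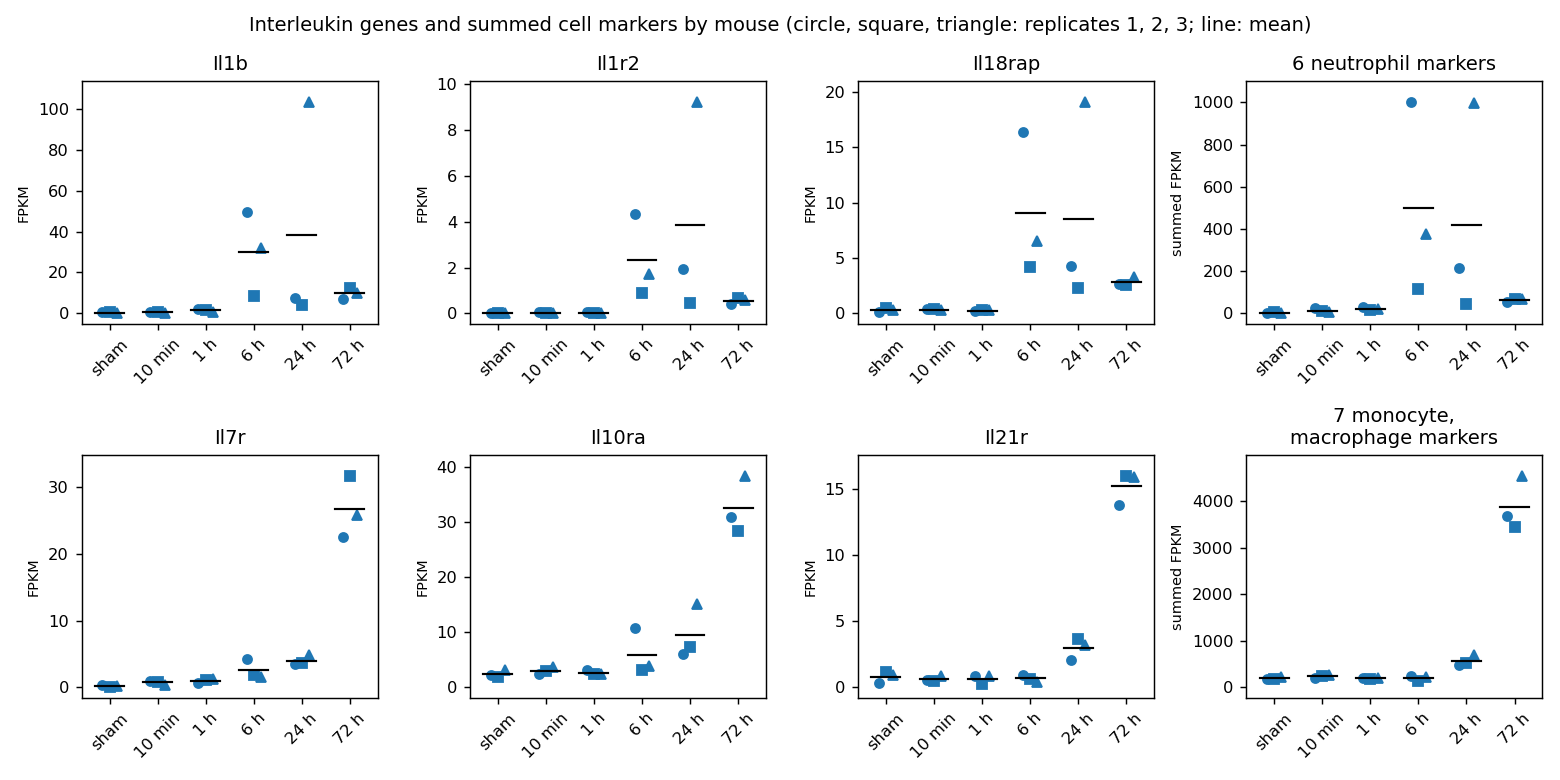
FPKM of 6 interleukin genes (left and middle panels, vertical axes) and summed FPKM of 6 neutrophil and 7 monocyte and macrophage markers (right panels) in each of the 18 mice by group (horizontal axes), with circles, squares and triangles for replicates 1, 2 and 3 and a line at the group mean. In the upper panels replicate 1 at 6 h and replicate 3 at 24 h are the highest mice, and in the lower panels the 72 h mice are.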

How the data were processed

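RNA-seq of heart tissue from 18 mice, 3 per group, was analysed. Per the submitters' processing notes, the authors used cutadapt 1.18 for trimming, HISAT2 2.1.0 for mapping to mm10 and StringTie 1.3.4d for estimating levels, and the notes also name Cufflinks and Cuffdiff. The annotation was not given in the sources used here. The values deposited by the authors are FPKM, 1 for each symbol and mouse without pooling, so that precision rests on how far the 3 mice of a group lie apart. Groups were taken from sample titles. Whether mice of a group shared a day or cage is not stated.

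FPKM were used as deposited. Genes with at least 1 FPKM in at least 1 mouse were compared as log2(FPKM + 1) with limma 3.58.1 (lmFit, eBayes with a variance trend) in R 4.3.3, each comparison on its own 6 mice without genes of constant value, with two-sided p-values adjusted by the Benjamini-Hochberg method across every gene tested. This was done for 5 times against sham and for 3 pairs of late times, and the steps were tested on simulated data. All tested members are named. Values for single mice are given for members called with a ratio of mean FPKM over 2 and for their receptors or ligands, and the Il1bos, Il17d and Il34 values were added after they had been seen. The members and the pathway and marker lists were chosen with earlier results of these data known. A single gene of the pathway lists is not reported here, though it counts in its list. Gene positions and exon overlaps are from GENCODE M21 on mm10 and promoters from RefSeq. Plots were drawn with matplotlib 3.10.9. Same-numbered mice did not deviate together (correlations from -0.327 to 0.415), so replicate numbers were not taken as pairs. Alternatives were a pseudocount of 0.1, no filter, no variance trend, quantile normalization, a replicate block, median-of-ratios scaling, 1 fit of all 18 mice and leaving out each mouse.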

Additional observations from a re-analysis of the deposited data

Results flagged for a closer look

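The following differences between late times passed the direct test with limma (adjusted p under 0.05), so that the levels of these genes differed between the times. The same sham group served every time, and the cause of these differences was not tested. All values are differences in log2(FPKM + 1), and both comparisons with 72 h share its mice, so they are not independent of each other.

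From 6 h to 24 h, Il21r rose by 1.25 and Il17rc by 0.52, and Il33 fell by 1.58. From 24 h to 72 h the receptor genes Il7r (2.46), Il21r (2.04), Il10ra (1.76), Il3ra (1.68), Il2rg (1.44), Il1r1 (1.34), Il6ra (0.90), Il1rl2 (0.76), Il2rb (0.73) and Il27ra (0.60) rose. In the same interval the ligands Il33 (1.99), Il18 (1.16) and Il16 (1.12) rose, while Il15 (-0.72) and its receptor Il15ra (-0.56) fell. From 24 h to 72 h the call of Il6ra was lost in 8 of 13 alternatives and that of Il27ra under quantile normalization (adjusted p = 0.0767). The call of Il15 was lost without 24 h replicate 1 or 2 or 72 h replicate 2 or 3.

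From 6 h to 72 h, Il21r (3.29), Il7r (3.03), Il10ra (2.43), Il3ra (2.20), Il2rg (2.05), Il6ra (1.10), Il1r1 (0.88), Il1rl2 (0.87), Il17rc (0.74), Il27ra (0.73) and Il2rb (0.52) rose, as did the ligands Il18 (1.68) and Il16 (1.52). Il10rb (0.38) and Il11ra1 (0.32) were also called higher than at 6 h, but both turned under another scaling. The 6 h to 72 h call of Il2rb was lost in 9 of 13 alternatives, down to 0.020 under quantile normalization, which also ended those of Il17rc (0.15), Il27ra (0.21) and Il1rl2 (0.31), and that of Il1r1 was lost with median-of-ratios scaling (0.48). Il6 (-1.67), Il18rap (-1.20), Il1r2 (-0.96), Il15 (-0.76) and Il15ra (-0.50) fell over that interval, and the call of Il15 was lost without 72 h replicate 2 or 3. Sums of monocyte and macrophage markers rose from 6 h to 24 h and from 24 h to 72 h. Of 6 neutrophil markers, 4 were lower and 1 (Mmp9) higher at 72 h than at 6 h, beside 16.7% and 50.3% of all genes. Their part in these differences was not tested.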

How the results depend on the processing

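The 113 calls behind the named members were repeated under 13 alternatives each, 1469 runs in all. Of these, 1267 stayed on the same side of the threshold, 198 kept their direction but lost the call and 4 turned. Under quantile normalization Il18bp at 72 h was -0.29, and from 6 h to 72 h Il11ra1 was -0.16. Median-of-ratios scaling turned Il10rb to -0.025 and Il11ra1 to -0.051 from 6 h to 72 h. In 60 of the 113 the call was lost in no setting. At 72 h the median difference of all genes, 0.29, was 0.04 after median-of-ratios scaling and -0.12 after quantile normalization.

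Against sham, the members called lower were 3 at 6 h and 12 at 72 h under median-of-ratios scaling and quantile normalization respectively, 3 at 24 h without the filter and 8 at 24 h under quantile normalization, and the higher member at 1 h became 0 with all 18 mice in one fit. At 72 h the higher members were 20 under quantile normalization, against 28, and 24 h had 10, against 15. From 6 h to 24 h the higher members were 1 with no filter and with either scaling, and 6 with all 18 mice in one fit, where 2 were lower. From 24 h to 72 h 4 were lower under quantile normalization and with all 18 mice in one fit. From 6 h to 72 h 3 were lower with no filter, and quantile normalization gave 9 higher and 13 lower. The cause of these shifts was not tested.

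With the replicate block, although same-numbered mice were not paired, 3 members were lower at 6 h, 3 were lower at 24 h, and from 6 h to 24 h 0 were higher and 0 lower. At 10 min no alternative called a member, at an unadjusted p under 0.05 in 6 of 42, and the share of all genes at that level was not counted.

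Leaving out each mouse in turn gave 1 to 2 higher and 0 to 1 lower at 1 h, 9 to 19 and 2 to 6 at 6 h, 5 to 17 and 1 to 4 at 24 h, and 26 to 29 and 4 to 6 at 72 h. It gave 0 to 3 higher and 0 to 1 lower from 6 h to 24 h, 12 to 19 and 1 to 2 from 24 h to 72 h, and 13 to 18 and 2 to 9 from 6 h to 72 h. With 3 mice a group, no exact permutation test of 1 gene could pass 0.05, and the values used here are FPKM alone, so counting error and limits of detection for the 41 members under 1 FPKM are unknown.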

Other observations

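Il1rn, the gene of the antagonist, can be set against Il1b, the gene of the agonist, within each mouse as a ratio of FPKM. This is a ratio of RNA in whole tissue, and the balance of the proteins was not tested. The 6 h mice had ratios of 0.830, 0.539 and 0.411. The 24 h mice had 2.27, 1.92 and 1.12, and the 72 h mice had 2.18, 1.53 and 1.67. All 24 h and 72 h mice lay above all 6 h mice, also replicate 3 at 24 h, whose levels of both genes were the highest of all mice. This ratio was chosen after its values had been seen and is given without a test.

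Several receptors were present at 72 h while the ligand was near or at 0 in the same tissue. Il7r was between 22.4 and 31.6 FPKM while Il7 was at most 0.338 FPKM, and Il3ra was between 31.6 and 40.1 FPKM while Il3 was listed at 0 in all 18 mice.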
